A study of Mus musculus with 6 samples.

Results

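The genes described here are 8 genes of the Th1 arm of helper T cells: the cytokine gene Ifng, the transcription factor genes Tbx21, Eomes, Hlx, Runx3 and Runx1, and the IL-18 receptor genes Il18r1 and Il18rap. They were taken by gene name from a table of 38483 genes and 93480 transcripts, where they have 23 transcripts in all, and each was read per transcript and as the sum over its transcripts. The table holds RNA sequencing of 6 cultures of splenic CD4+CD62L+ T cells from B10.RIII mice, 3 from Il17a knockout animals (IL-17A-/-, KO 1 to KO 3) and 3 from wild-type animals (IL-17A+/+, WT 1 to WT 3). All 6 were grown for 3 days toward the Th17 state with TGF-β at 1 ng/ml and both IL-23 and IL-6 at 10 ng/ml. Antibodies against IFN-γ and against IL-4 were present at 10 µg/ml each, so Ifng RNA was measured in cultures in which its product was being blocked. The origin of the knockout allele, the age of the mice and any pooling of animals are not stated in the labels. The comparison asks how these genes differ in Th17 cultures that cannot make IL-17A.

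Th1 cells are the helper T cells that make IFN-γ against intracellular microbes. T-bet, the product of Tbx21, is their lineage factor; it works with Runx3 and Hlx on the Ifng locus, and the related T-box factor Eomes drives IFN-γ in CD8 T cells and NK cells. IL-18, acting through the receptor chains encoded by Il18r1 and Il18rap, raises IFN-γ together with IL-12. In Th17 cells T-bet opposes the Th17 program, while Runx1 takes part in it, and T-bet can hold Runx1 back.

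The libraries held 47335736 to 49743762 estimated counts, and levels are in CPM (counts scaled to a common library size by the TMM method) unless stated otherwise. The targeted gene Il17a was at 1.11, 0 and 0.0202 CPM in KO 1, 2 and 3, against 160.6, 211.1 and 107.8 CPM in WT 1, 2 and 3; a count of 0 in KO 2 allows up to 0.0614 CPM. CD4 T cell markers (Cd3d, Cd3e, Cd3g and Cd4) summed to 1779 to 2232 CPM in the knockout and to 1614 to 2453 CPM in the wild type, and Cd4 was at 246 CPM or more in every library. Libraries with the same replicate number deviated together, and below, pair 1 is KO 1 with WT 1, and so on. KO 1 and KO 2 also differed from the other 4 libraries in sex-linked RNA: Xist was at 2.58 and 0 CPM in KO 1 and KO 2 and at 567 to 664 CPM in the other 4. Genotype and sex-linked RNA therefore differed together in pairs 1 and 2 but not in pair 3, so the values of pair 3 are given for the 8 genes and for most other genes named. Of 15121 genes tested, edgeR's quasi-likelihood test called 0 at an adjusted p under 0.05, with 253 genes (1.67%) at an unadjusted p under 0.05. With the replicate number as a block edgeR again called 0, with 1471 (9.73%) at an unadjusted p under 0.05. DESeq2 without the block called 13 genes (0.086%), 0.0529% of those tested being higher and 0.0331% lower in the knockout, and 0 of them were among the 8 genes. With the block it called 381 (2.52%), 154 of them higher and 227 lower. All 8 genes passed the filter on low counts.

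Ifng and Tbx21 were the members that rose in the knockout, and they did so in DESeq2 with the replicate block only. Ifng was higher in the knockout library of every pair, as was Tbx21. Most of the variation in these genes lay between replicate numbers: 5 of the 8, Ifng, Tbx21, Eomes, Il18r1 and Il18rap, were highest in the number 1 libraries of both genotypes. Runx3 was nearly level across the 6 libraries, and Runx1 ran the other way, lowest in the number 1 libraries.

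Ifng (ENSMUSG00000055170, chromosome 10, 118441047 to 118445892, plus strand, GRCm38) encodes IFN-γ and has 1 transcript in the table. It was at 197, 17.5 and 7.02 CPM in KO 1, 2 and 3, against 60.0, 15.5 and 3.64 CPM in WT 1, 2 and 3. The 2 number 1 libraries stood far above the rest, and the genotypes overlapped, since KO 2 and KO 3 lay below WT 1. The lowest of the 6 values rests on 174 counts and the highest on 10077. Taken of CPM + 0.5, the log2 of knockout over wild type was 1.71 in pair 1, 0.16 in pair 2 and 0.86 in pair 3. The group means were 73.8 ± 107 CPM for the knockout and 26.4 ± 29.7 CPM for the wild type (SD, n = 3 each). The knockout SD, but not the wild-type SD, was wider than the difference between the means. Without the block the log2 change was 1.48 (SE 1.37, edgeR adjusted p 0.9999). With the block it was 0.96 in edgeR (SE 0.30, adjusted p 0.434) and 0.94 in DESeq2 (SE 0.27, adjusted p 0.0220). In paired DESeq2 fits the adjusted p was 1 without pair 1 (log2 change 0.56), 3.07e-06 without pair 2 (1.34) and 0.145 without pair 3 (0.94). In bulk RNA, fewer cells that make a transcript and less of it per cell cannot be told apart.

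The bases before the Ifng start are shown because the other members and STAT proteins are known to act at this locus. The 250 bases before the RefSeq start (GRCm38.p6, chr10:118440796-118441045, plus strand) hold 1 match to the gamma-activated site TTCNNNGAA, the form of site that STAT dimers bind, shown in capitals and beginning at position -249 from the start.
Ifng: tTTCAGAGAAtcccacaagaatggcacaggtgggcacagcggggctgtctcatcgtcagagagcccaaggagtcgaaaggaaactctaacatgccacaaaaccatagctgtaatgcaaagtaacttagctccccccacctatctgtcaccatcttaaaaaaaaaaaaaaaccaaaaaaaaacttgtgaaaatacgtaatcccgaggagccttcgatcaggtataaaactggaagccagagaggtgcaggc
The T-box core site GTGTGA and the Runx site TGNGGT had no match on either strand in the Ifng window of 250 bases before to 50 after the start. None of the 3 motifs had a match in the Tbx21, Eomes or Hlx windows. Over all 32817 RefSeq windows of that length, 8.29% held the gamma-activated site, 14.5% the T-box core site and 45.8% the Runx site, and a match of letters is a description, not a binding site.

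Tbx21 (ENSMUSG00000001444, chromosome 11, 97098071 to 97115331, minus strand) encodes T-bet. It was at 61.7, 15.1 and 9.65 CPM in KO 1, 2 and 3, against 35.01, 8.37 and 6.52 CPM in WT 1, 2 and 3. Each knockout library was above its partner by a similar factor, with log2 ratios of 0.81, 0.81 and 0.53 in pairs 1, 2 and 3, while the step from the number 1 libraries to the others was larger than any of these. The group means of 28.8 ± 28.6 CPM for the knockout and 16.6 ± 15.9 CPM for the wild type (SD, n = 3 each) overlapped widely. Without the block the log2 change was 0.79 (SE 0.88, edgeR adjusted p 0.9999). With the block it was 0.75 in edgeR (SE 0.11, adjusted p 0.254) and 0.74 in DESeq2 (SE 0.16, adjusted p 7.43e-04). The DESeq2 call was lost when any pair was left out, at an adjusted p of 0.584 without pair 1 (log2 change 0.71), 0.0887 without pair 2 (0.68) and 0.0708 without pair 3 (0.82), and the estimate stayed within that range. Fitted over all transcripts, paired DESeq2 called Tbx21-001, the 1 Tbx21 transcript (0.75, adjusted p 0.00700), where it called 1.13% of 36508 transcripts, 0.529% as higher; Ifng-201, the 1 Ifng transcript, was at 0.96 (adjusted p 0.205).

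Eomes (ENSMUSG00000032446, chromosome 9, 118478212 to 118486132, plus strand), the second T-box gene, was scarce outside the number 1 libraries. It was at 19.2, 1.47 and 0.789 CPM in KO 1, 2 and 3, against 15.0, 2.17 and 0.836 CPM in WT 1, 2 and 3, which is 39 counts in KO 3 and 40 in WT 3. Only pair 1 was higher in the knockout, with log2 ratios of 0.35, -0.43 and -0.05 in pairs 1, 2 and 3. Its log2 change was 0.26 without the block (SE 1.404, edgeR adjusted p 0.9999) and -0.08 with it (SE 0.31, DESeq2 adjusted p 0.987). The counts of Eomes-001 made up 89.3%, 98.2% and 94.5% of the gene in KO 1, 2 and 3, against 88.7%, 97.2% and 42.7% in WT 1, 2 and 3; in WT 3 Eomes-003 took the rest, at 23.2 estimated counts. Hlx (ENSMUSG00000039377, chromosome 1, 184727140 to 184732619, minus strand), a homeobox gene that T-bet induces, was near 1 CPM throughout. It was at 0.489, 1.596 and 1.01 CPM in KO 1, 2 and 3, against 0.883, 0.879 and 1.00 CPM in WT 1, 2 and 3, from 25 to 78 counts per library. Hlx did not share the peak in the number 1 libraries, and its log2 ratios of -0.48, 0.60 and 0.01 had no common direction (paired DESeq2 change 0.0073, SE 0.63, adjusted p 0.999).

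**Figure D1:**
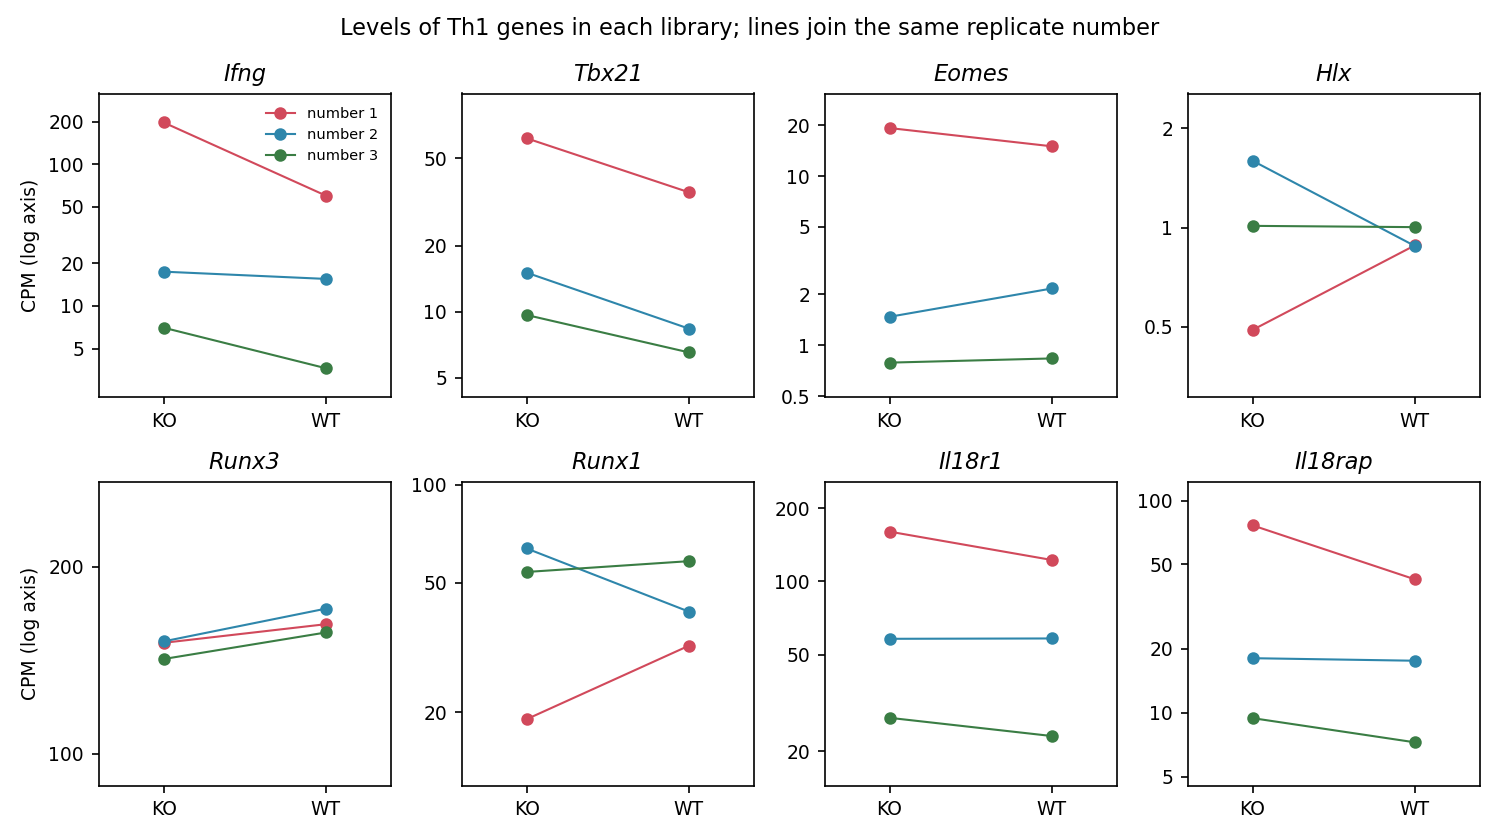
CPM of the 8 Th1 genes on log axes in knockout (left) and wild-type (right) libraries, with 1 point per library and lines joining libraries of the same replicate number. Ifng runs from 3.64 to 197 CPM and Runx3 from 142 to 171 CPM, and in the Ifng, Tbx21, Eomes, Il18r1 and Il18rap panels the red number 1 line lies above the others.

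The number 1 pattern was chosen for description after these values were seen, so it is given with no test. In Ifng, Tbx21, Eomes, Il18r1 and Il18rap, 5 of the 8, both KO 1 and WT 1 had at least 2 times the CPM + 0.5 of each other library of their genotype. The same held for 1.23% of all tested genes. KO 1 exceeded the mean of KO 2 and KO 3 16.1-fold in Ifng, 16.99-fold in Eomes, 4.996-fold in Tbx21, 5.55-fold in Il18rap and 3.75-fold in Il18r1. WT 1 exceeded the mean of WT 2 and WT 3 6.27-fold in Ifng, 9.99-fold in Eomes, 4.71-fold in Tbx21, 3.42-fold in Il18rap and 3.01-fold in Il18r1. The whole range over the 6 libraries was 5.58 log2 units for Ifng, against a median of 0.74 over all tested genes, and 0.172% of tested genes had a larger one. At the other end, Runx3 ranged over 0.27 log2 units, and 95.4% of tested genes ranged more widely.

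The IL-18 receptor genes lie side by side on chromosome 1 and moved together across the libraries. Il18r1 (ENSMUSG00000026070, 40465552 to 40500854, plus strand) encodes the chain that binds IL-18. It was at 160.1, 58.0 and 27.5 CPM in KO 1, 2 and 3, against 122, 58.2 and 23.1 CPM in WT 1, 2 and 3. Pair 2 was level and pairs 1 and 3 were higher in the knockout, with log2 ratios of 0.39, -0.0045 and 0.24 in pairs 1, 2 and 3. Il18rap (ENSMUSG00000026068, 40515362 to 40551705, plus strand) encodes the accessory chain that the complex needs to signal. It was at 76.4, 18.1 and 9.45 CPM in KO 1, 2 and 3, against 42.6, 17.6 and 7.27 CPM in WT 1, 2 and 3, with log2 ratios of 0.84, 0.04 and 0.36. Both genes were highest in the number 1 and lowest in the number 3 library of each genotype, and neither passed a test. Of the 4 Il18rap transcripts, Il18rap-001 held 94.2% to 99.0% of the counts in knockout and 91.0% to 99.7% in wild-type libraries, and Il18rap-004, a retained intron, most of the rest in KO 1 (154 estimated counts) and WT 2 (69.1). The paired DESeq2 change was 0.20 for Il18r1 (SE 0.13, adjusted p 0.681) and 0.41 for Il18rap (SE 0.20, adjusted p 0.391). Il18r1 begins 19.7 Mb beyond Il17a on the same chromosome and Hlx 164 Mb beyond it.

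Among the neighbours of the members, 10 genes in the table of which 9 were tested, 0 were called in any edgeR or paired DESeq2 fit on all 6 libraries. Of all tested genes, paired DESeq2 called 2.52% and edgeR 0%. In the receptor cluster that holds Il18r1, the IL-1 receptor gene Il1r1 had the smallest unpaired p, at 22.3, 16.4 and 18.1 CPM in KO 1, 2 and 3, against 13, 14.02 and 16.7 CPM in WT 1, 2 and 3. Il22, a cytokine gene near Ifng on chromosome 10, was also highest in the number 1 libraries, at 89.9, 5.34 and 5.34 CPM in KO 1, 2 and 3, against 36.2, 6.49 and 13.4 CPM in WT 1, 2 and 3. Its log2 ratio was above 0 in pair 1, -0.26 in pair 2 and -1.25 in pair 3, whereas that of Ifng was above 0 in each.

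Most Il18r1 counts were given to Il18r1-202, a transcript that starts at 40466006. It held 89.6%, 89.1% and 82.2% of the counts of the gene in KO 1, 2 and 3, against 93.0%, 90.8% and 72.8% in WT 1, 2 and 3. Il18r1-203, which starts upstream at 40465552, had nearly all of the rest, at 851, 309 and 234 estimated counts in KO 1, 2 and 3, against 416, 237 and 301 in WT 1, 2 and 3. The RefSeq window at the start used by Il18r1-202 holds 2 matches to the gamma-activated site, beginning at positions -219 and -152 from that start. They are shown because they are the other matches to that motif among the 12 windows of the 8 genes, with the match in capitals (GRCm38.p6, plus strand, chr1:40465776-40465805 and chr1:40465843-40465872).
Il18r1 upstream match: gtcggggttagTTCTGGGAActgtggagct
Il18r1 downstream match: gagtacaggtcTTCCCAGAActgaaagctt

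Runx3 (ENSMUSG00000070691, chromosome 4, 135120652 to 135177990, plus strand), the T-bet partner that also silences Cd4 in CD8 T cells, was the steadiest of the 8 genes. It was at 151, 152 and 142 CPM in KO 1, 2 and 3, against 162, 171 and 157 CPM in WT 1, 2 and 3. Every knockout library lay below every wild-type library, alone among the 8 genes; of all tested genes 6.14% did not overlap, 3.13% with the knockout below. The ratios of pairs 1, 2 and 3 were -0.10, -0.18 and -0.14 on the log2 scale. The difference passed no test: the log2 change was -0.14 without the block (SE 0.12, edgeR adjusted p 0.9999) and -0.15 with it (SE 0.10, DESeq2 adjusted p 0.685). Runx3-001, which starts at the distal promoter, held 98.6% to 99.3% of the counts of the gene in knockout and 98.9% to 99.3% in wild-type libraries, and Runx3-002, from the proximal promoter, was listed at 0 in all 6. The noncoding Runx3-003, Runx3-004, Runx3-005 and Runx3-006 each stayed at 47.7 estimated counts or less.

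Runx1 (ENSMUSG00000022952, chromosome 16, 92601467 to 92826066, minus strand), the Runx factor that takes part in the Th17 program, was lowest where the Th1 genes were highest. It was at 19.0, 63.7 and 53.9 CPM in KO 1, 2 and 3, against 31.99, 40.7 and 58.2 CPM in WT 1, 2 and 3. KO 1 was the lowest library and WT 1 the next, and the pairs differed in direction, with log2 ratios of -0.73, 0.64 and -0.11. Its paired DESeq2 change was -0.08 (SE 0.25, adjusted p 0.979). Runx1 had no single main transcript. Runx1-201, from the distal promoter, held 40.9%, 27.3% and 24.8% of the counts of the gene in KO 1, 2 and 3, against 32.2%, 52.7% and 28.5% in WT 1, 2 and 3 (31.0 ± 8.70% in knockout and 37.8 ± 13.0% in wild-type libraries, SD, n = 3 each).
In CPM, Runx1-201 was at 7.78, 17.4 and 13.3 in KO 1, 2 and 3, against 10.3, 21.5 and 16.6 in WT 1, 2 and 3. It was lower in the knockout of every pair, but the ranges overlapped and the transcript did not pass (paired DESeq2 change -0.33, SE 0.20, adjusted p 0.732). Most of the excess of Runx1 in KO 2 over WT 2 lay in Runx1-203, from the proximal promoter, at 1387 estimated counts in KO 2 and 133 in WT 2. Runx1-202 and Runx1-203 share their start and end in the table, so the split between them rests on the estimate, and Runx1-203 passed no test (paired DESeq2 change 0.53, SE 0.80, adjusted p 0.996).

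**Figure D2:**
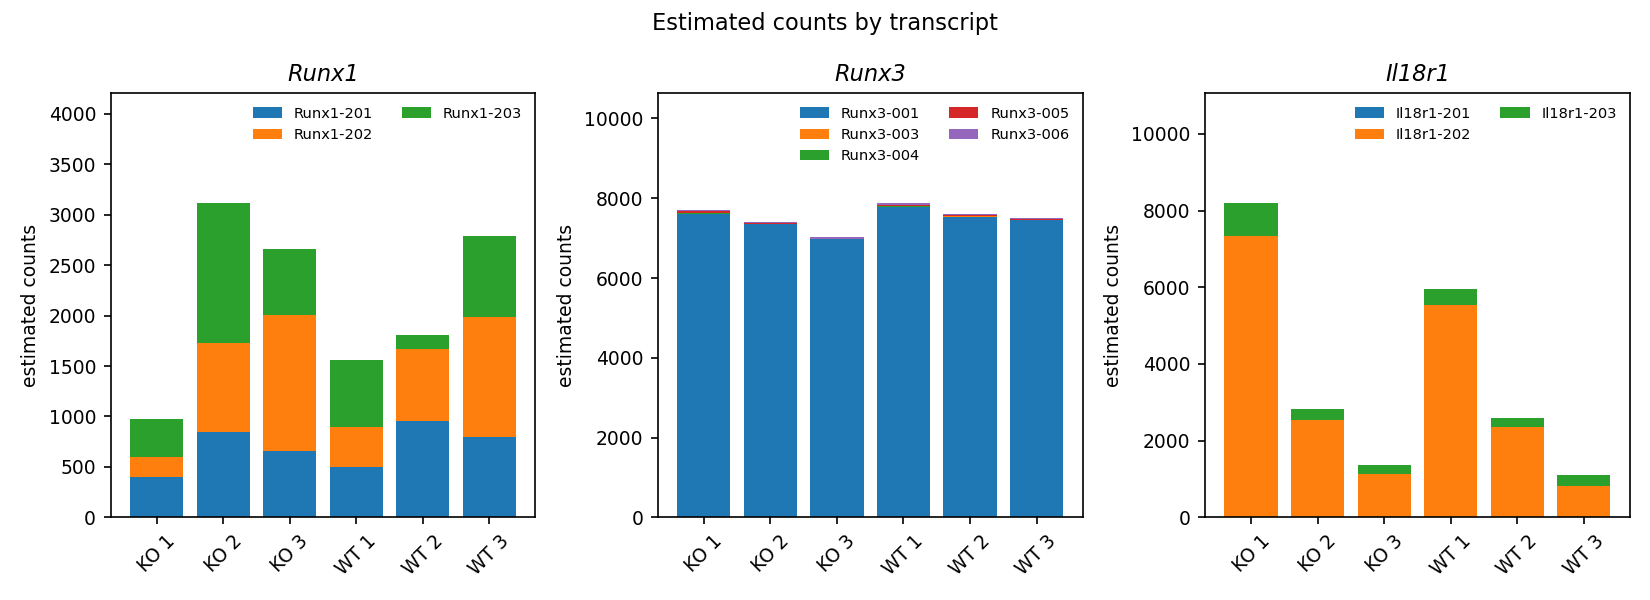
Stacked estimated counts of each transcript of Runx1, Runx3 and Il18r1 in the 3 knockout and 3 wild-type libraries, with colours marking the transcripts named in each panel. Runx3 is nearly all Runx3-001 in every library, Runx1 is split over 3 transcripts, and Il18r1-202 makes up 72.8% to 93.0% of Il18r1.

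The distal promoters of the Runx genes are set side by side because the transcripts above divide by promoter and because Runx factors are known to regulate their own genes. Each of 3 distal windows held a pair of Runx sites 8 bases apart, in capitals, read here on the strand of the gene as ACCNCA, the complement of TGNGGT. An identical run of 18 bases covers both sites in all 3 genes, and 4 of 32817 RefSeq windows hold it: those of Runx1, Runx3, Runx2 and Gm16225, whose window lies at the Runx3 start. The stretches are on GRCm38.p6, at chr16:92826025-92826054 on the minus strand for Runx1, chr4:135120503-135120532 on the plus strand for Runx3 and chr17:44814583-44814612 on the minus strand for Runx2.
Runx1: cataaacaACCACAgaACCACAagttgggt
Runx3: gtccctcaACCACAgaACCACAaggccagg
Runx2: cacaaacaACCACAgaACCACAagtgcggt
Counted from the RefSeq start, the first site of the pair begins at position -134 in Runx3, 29 in Runx1 and 24 in Runx2. Capitals mark the pair only. The Runx1 window holds another Runx site at position 17, outside the stretch shown. The Runx2 stretch ends in another match to TGNGGT, left in lower case. Antisense genes annotated within the members were at 0.209 CPM or less inside Runx1 (AL672278.1) and at 0.573 CPM or less inside Runx3 (Gm16224), far below either gene.

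Levels can be compared between genes only per length, as CPM per kb of transcript. In the knockout the means of CPM per kb were, in order, Ifng (61.2 ± 88.5), Runx3 (42.0 ± 2.82), Il18r1 (22.3 ± 18.5), Tbx21 (11.6 ± 11.5), Il18rap (8.80 ± 9.75), Runx1 (6.88 ± 3.49), Eomes (2.19 ± 3.23) and Hlx (0.452 ± 0.240; SD, n = 3). In the wild type the order was Runx3 (45.9 ± 2.29), Ifng (21.9 ± 24.6), Il18r1 (18.2 ± 12.5), Runx1 (6.72 ± 1.99), Tbx21 (6.68 ± 6.41), Il18rap (5.77 ± 4.26), Eomes (1.87 ± 2.47) and Hlx (0.406 ± 0.0320; SD, n = 3). Neighbours in these orders differed by less than the larger of their SDs, except Runx3 and Il18r1 and also Runx1 and Eomes in the knockout. Within single libraries the order turned on the replicate number. Per length, Ifng was the highest member in KO 1, at 163 CPM per kb, and in WT 1, at 49.7 CPM per kb. In the other libraries Runx3 was the highest, at 42.4 and 39.0 CPM per kb in KO 2 and KO 3 and at 47.6 and 43.3 CPM per kb in WT 2 and WT 3. Tbx21 was above Runx1 per length in the number 1 libraries only, at 24.8 against 2.94 CPM per kb in KO 1 and 14.1 against 4.86 CPM per kb in WT 1.

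Set against the whole table, edgeR called 0 of the 8 genes at an adjusted p under 0.05 with or without the block, where it called 0% of all tested genes. Paired DESeq2 called 2 of the 8 as higher in the knockout, Tbx21 and Ifng, and 0 as lower, where it called 1.02% of all tested genes as higher and 1.5% as lower. The median log2 change of the 8 genes was 0.26 in edgeR, against 0.01 over all tested genes, and 0.10 in paired DESeq2, against 0.0036. The genes were chosen with earlier results of these data known, and their results are not independent of that choice. Ifng, Tbx21 and Il18rap were higher in the knockout in all 3 pairs, as were 16.6% of tested genes, and Runx3 was lower in all 3, as were 16.7%.

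**Figure D3:**
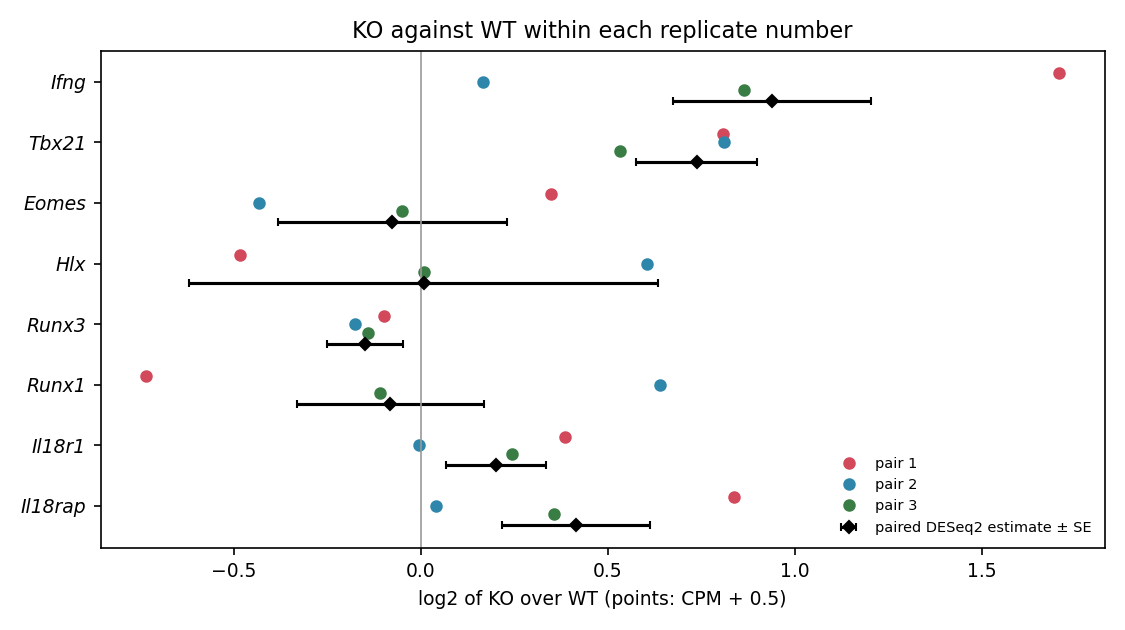
Log2 of knockout over wild-type for each gene within pairs 1, 2 and 3 (coloured points, CPM + 0.5) and the DESeq2 estimate with the replicate block (black diamonds, bars ± SE). All 3 Tbx21 points lie between 0.53 and 0.81, the Ifng points spread from 0.16 to 1.71, and Runx1 and Hlx have points on both sides of 0.

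Genes with profiles most like those of Ifng and Tbx21 were named by the smallest root mean square difference of log2(CPM + 0.5), each gene centred on its own mean over the 6 libraries, among 12674 genes with a mean of at least 1 CPM. Nearest to Ifng were Serpina3f (0.29 log2 units), Serpinb9 (0.31), Samd3 (0.43), A530032D15Rik (0.50) and Ms4a4c (0.50). Serpinb9, which encodes an inhibitor of granzyme B, was at 110.3, 10.2 and 4.76 CPM in KO 1, 2 and 3, against 32.9, 6.13 and 2.95 CPM in WT 1, 2 and 3. Of these 5 genes, Serpinb9 (paired DESeq2 change 1.06, adjusted p 0.00151) and Ms4a4c (1.55, adjusted p 2.63e-11) rose in the knockout. Paired DESeq2 called 1.02% of all tested genes as higher. The 5 were picked by likeness to Ifng over the same 6 libraries, genotype difference included, so their calls are not independent of that choice.
Nearest to Tbx21 were B3gnt7 (0.19 log2 units), Cables1 (0.21), Amica1 (0.22), Gm12216 (0.22) and Klra3 (0.23), none of them called by paired DESeq2. Amica1, an adhesion molecule gene, was at 39.6, 9.90 and 7.02 CPM in KO 1, 2 and 3, against 20.1, 7.91 and 4.62 CPM in WT 1, 2 and 3. Among the members, Il18rap was nearest to Tbx21 (0.33, rank 39) and Eomes nearest to Ifng (0.60, rank 13). Runx1 was among the most distant, at rank 12143 from Tbx21 and rank 12228 from Ifng.

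The summed level of CD8 T cell markers moved with Ifng and Tbx21. The 5 markers (Cd8a, Cd8b1, Klrc1, Gzmk and Crtam) summed to 879, 157 and 158 CPM in KO 1, 2 and 3, against 536, 121 and 94.8 CPM in WT 1, 2 and 3. Like Ifng and Tbx21, the sum was highest in the number 1 libraries, and it was higher in the knockout of every pair, with log2 ratios of 0.71, 0.37 and 0.74. The coreceptor gene Cd8a was at 425, 62.3 and 66.1 CPM in KO 1, 2 and 3, against 257, 48.3 and 33.7 CPM in WT 1, 2 and 3, and it rose in paired DESeq2 (0.68, adjusted p 7.02e-04). Of the 5, all but Gzmk were higher in the knockout in all 3 pairs, as were 16.6% of tested genes. Cd8a and Klrc1 rose, where paired DESeq2 called 1.02% of tested genes as higher, and the pair 3 log2 ratio of Klrc1 was 1.02. Gzmk was at 1.08, 2.23 and 1.397 CPM in KO 1, 2 and 3, against 1.89, 0.361 and 0.773 CPM in WT 1, 2 and 3, and so was lowest in KO 1 among the knockout libraries. Cd4 was lowest in KO 1 but not low in WT 1, at 246, 634 and 380 CPM in KO 1, 2 and 3, against 524, 580 and 491 CPM in WT 1, 2 and 3. The part of CD8 T cell markers in the Ifng and Tbx21 results was not tested. Without the number 1 libraries, the log2 change was 0.73 for Tbx21 (SE 0.33) and 0.36 for Ifng (SE 0.77) in edgeR, with an adjusted p of 1 for each.
Of the 7 NK cell markers, 4 (Klre1, Klrd1, Klrk1 and Prf1) were higher in the knockout in all 3 pairs, as were 16.6% of tested genes, and these 4 were highest in the number 1 libraries of both genotypes, as Ifng was. The 7 NK cell markers summed to 1132, 1178 and 1453 CPM in KO 1, 2 and 3, against 1565, 988 and 857 CPM in WT 1, 2 and 3. The sum was thus lower in the knockout of pair 1 and higher in pairs 2 and 3. Gzma, which activated T cells also express, made up much of it. Gzma was at 423, 988 and 1245 CPM in KO 1, 2 and 3, against 1139, 831 and 751 CPM in WT 1, 2 and 3. It was lowest in KO 1, where Ifng was highest. The defining NK receptor gene Ncr1 was at 0.0978 to 0.286 CPM in knockout and 0.123 to 0.272 CPM in wild-type libraries, near the floor of about 0.06 CPM, and Klrb1c stayed at 2.05 CPM or less. Klrd1 and Klrk1, which CD8 T cells express too, rose in paired DESeq2, with pair 3 log2 ratios of 1.02 and 0.88. Of 6 gamma-delta T cell markers listed, 5 were in the table. They summed to 65.0 to 86.8 CPM in knockout and 48.2 to 56.1 CPM in wild-type libraries. Blk made up 14.4 to 43.7 CPM of these sums in knockout and 8.77 to 19.7 CPM in wild-type libraries. Of the 5, Blk alone rose, with a pair 3 log2 ratio of 0.69, where paired DESeq2 called 1.02% of tested genes as higher. Blk was highest in the number 1 and lowest in the number 3 library of each genotype. The summed B cell markers ran in the same order, at 458, 184 and 55.0 CPM in KO 1, 2 and 3, against 206, 74.7 and 51.1 CPM in WT 1, 2 and 3. The rise of Blk is therefore not read as one of gamma-delta T cells. Tcrg-C4 was level, with a paired DESeq2 change of -0.03. Zbtb16, the NKT cell factor, was at 1.51 CPM or less in knockout and 1.62 CPM or less in wild-type libraries. The part of these markers was not tested.

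**Figure D4:**
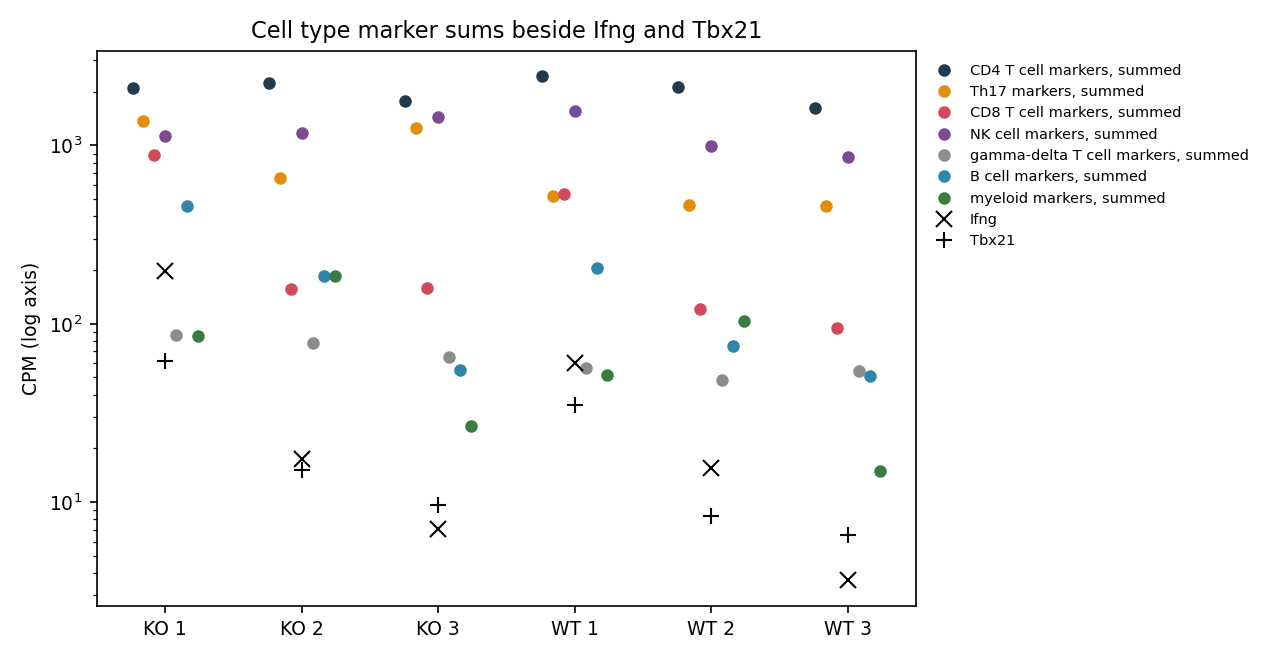
CPM on a log axis of summed cell type markers (coloured points) and of Ifng and Tbx21 (black crosses) in each knockout and wild-type library. Ifng, Tbx21 and the CD8 T cell marker sum, at 879 CPM in KO 1 and 536 CPM in WT 1, are highest in the number 1 libraries, and the CD4 T cell marker sum stays between 1614 and 2453 CPM.

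Of the Th17 marker genes, the cytokine gene Il17f and the chemokine gene Ccl20 rose in paired DESeq2, which called 1.02% of tested genes as higher. In pair 3 the log2 ratio of Il17f was 1.99, and Ccl20 was at 16.1 CPM in KO 3 and 5.79 CPM in WT 3. Il17f was at 1285, 433 and 1036 CPM in KO 1, 2 and 3, against 376, 301 and 260 CPM in WT 1, 2 and 3. The genotypes did not overlap, and 3.01% of all tested genes likewise had the whole knockout range above.

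Of 21 genes of IL-12, IL-18, IL-27 and IFN-γ signalling, 20 were tested and 0 were called in either direction by edgeR or paired DESeq2. Of all tested genes, paired DESeq2 called 1.02% as higher and 1.5% as lower, and edgeR called 0%. Without the block, 0 of the 20 had an unadjusted edgeR p under 0.05, as against 1.67% of all tested genes. The median change was 0.02 in paired DESeq2, against 0.0036 over all tested genes, and -0.0090 in edgeR, against 0.01. Stat4, the transducer of IL-12, was at 164, 89.4 and 73.1 CPM in KO 1, 2 and 3, against 109, 80.6 and 66.2 CPM in WT 1, 2 and 3, and the IL-12 receptor gene Il12rb2 at 132 to 218 CPM in knockout and 107 to 201 CPM in wild-type libraries. Gadd45g, a stress-response gene that supports IFN-γ output in Th1 cells, had the smallest unpaired p. It was at 28.4, 28.7 and 21.5 CPM in KO 1, 2 and 3, against 47.04, 31.3 and 30.3 CPM in WT 1, 2 and 3. Every knockout value lay below the wild-type range, as in 3.13% of all tested genes (paired DESeq2 change -0.46, adjusted p 0.165). Of the ligand genes, Il12a was higher in the knockout of each pair but was not called, at 6.37, 3.76 and 0.688 CPM in KO 1, 2 and 3, against 3.696, 1.83 and 0.522 CPM in WT 1, 2 and 3. The ligand genes Il12b and Il18 stayed at 0.137 and 0.573 CPM or less in knockout and at 0 and 0.739 CPM or less in wild-type libraries.

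Of 14 partners and opponents of T-bet and Runx factors, 13 were tested and 0 were called by edgeR or paired DESeq2. Of all tested genes, paired DESeq2 called 1.02% as higher and 1.5% as lower, and edgeR called 0%. The median paired change of the list was 0.13, against 0.0036 over all tested genes. Prdm1, which encodes Blimp-1, had the smallest unpaired p and was higher in each pair, at 8.15, 10.7 and 16.4 CPM in KO 1, 2 and 3, against 6.51, 7.85 and 9.51 CPM in WT 1, 2 and 3 (paired DESeq2 change 0.51, adjusted p 0.265). Cbfb, the shared partner of the Runx factors, was at 89.4 to 118 CPM in knockout and 78.4 to 116 CPM in wild-type libraries. Gata3, the Th2 factor, stayed at 11.6 CPM or less in knockout and 5.68 CPM or less in wild-type libraries.

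Of 14 Th1 effector genes, all tested, 3 rose in paired DESeq2 and 0 fell, where 1.02% of all tested genes were called higher and 1.5% lower. The median paired change was 0.17, against 0.0036 over all tested genes; edgeR called 0 with or without the block. Havcr2, which encodes the checkpoint receptor TIM-3 of Th1 and CD8 T cells, was at 4.54, 11.8 and 4.11 CPM in KO 1, 2 and 3, against 2.61, 4.71 and 1.00 CPM in WT 1, 2 and 3 (1.36, adjusted p 0.00620). The chemokine genes Ccl3 (1.10, adjusted p 3.01e-05) and Ccl4 (1.00, adjusted p 1.88e-10) were, like Ifng, highest in the number 1 libraries, and their pair 3 log2 ratios were 1.25 and 1.17. The T-bet target Cxcr3 did not pass, at 14.7, 11.1 and 6.13 CPM in KO 1, 2 and 3, against 15.5, 7.98 and 5.01 CPM in WT 1, 2 and 3. Lta, a cytokine gene with the smallest unpaired p of the list, was higher in pair 1 and lower in pairs 2 and 3, at 80.9, 99.3 and 82.7 CPM in KO 1, 2 and 3, against 71.8, 263 and 154 CPM in WT 1, 2 and 3.

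Of 17 genes that IFN-γ induces in many cells, 16 were tested; 2 rose in paired DESeq2, 0 fell, and edgeR called 0 with or without the block. Paired DESeq2 called 1.02% of all tested genes as higher and 1.5% as lower, and the median paired change of the list was 0.20, against 0.0036 over all tested genes. Ciita, the master factor of MHC class II genes, was at 17.5, 8.41 and 3.00 CPM in KO 1, 2 and 3, against 7.08, 2.77 and 0.857 CPM in WT 1, 2 and 3 (1.54, adjusted p 2.11e-06). Ciita is also a B cell gene, and the 6 B cell markers summed to 458, 184 and 55.0 CPM in KO 1, 2 and 3, against 206, 74.7 and 51.1 CPM in WT 1, 2 and 3, with Ms4a1 and Cd22 among those that rose; their part in the Ciita result was not tested. In pair 3 the log2 ratio was 0.57 for Ms4a1 and 0.05 for Cd22, which was at 1.33 in pair 1. The 5 myeloid markers, of cells that also use Ciita, summed to 85.8, 185 and 26.6 CPM in KO 1, 2 and 3, against 51.7, 103 and 14.9 CPM in WT 1, 2 and 3. Of the 5, Itgam and Mpeg1 rose, with pair 3 log2 ratios of 1.16 and 0.56. Cd68 was lower in the knockout of pairs 2 and 3, with log2 ratios of 0.11, -0.08 and -0.57 in pairs 1, 2 and 3. The part of the myeloid markers was not tested either. Iigp1, an immunity-related GTPase gene, was at 145, 21.1 and 15.7 CPM in KO 1, 2 and 3, against 101, 16.6 and 6.54 CPM in WT 1, 2 and 3 (0.69, adjusted p 0.0279). Gbp7 was also higher in the knockout of each pair but was not called (paired DESeq2 change 0.73, adjusted p 0.089). Irf1 was closer between the genotypes, at 276, 144 and 89.5 CPM in KO 1, 2 and 3, against 248, 133 and 92.0 CPM in WT 1, 2 and 3. Igtp was slightly lower in the knockout of each pair, at log2 ratios of -0.14, -0.08 and -0.05. The chemokine gene Cxcl10, with the smallest unpaired p of the list, was at 1.96, 0.430 and 0.283 CPM in KO 1, 2 and 3, against 0.329, 0.383 and 0.209 CPM in WT 1, 2 and 3, and did not pass.

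**Figure D5:**
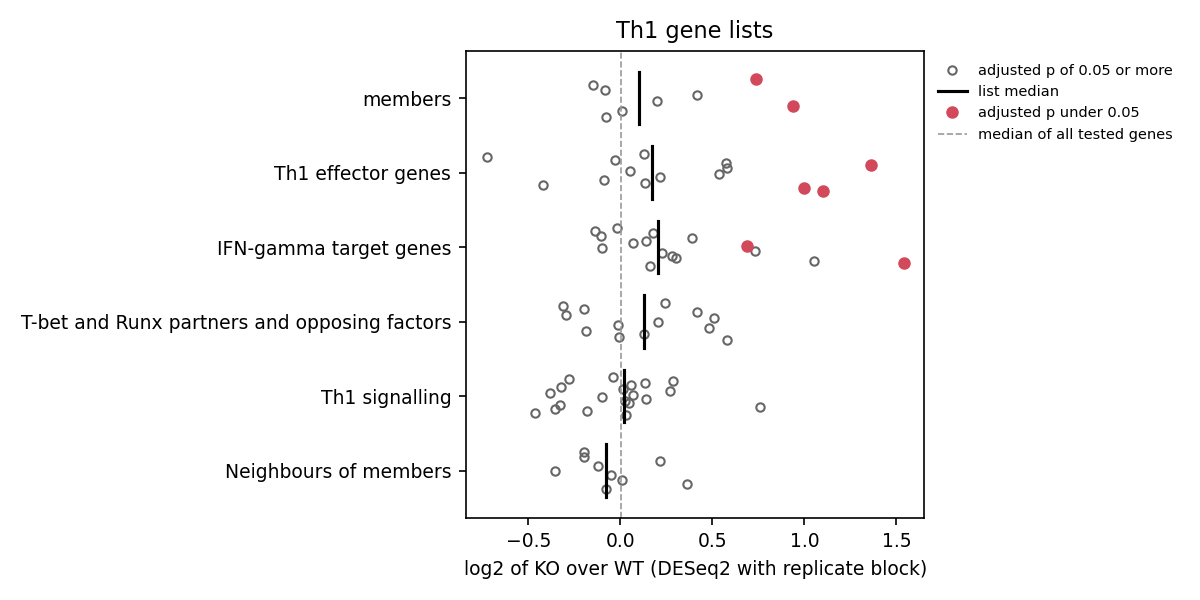
Log2 of knockout over wild-type from DESeq2 with the replicate block for each tested gene of 6 lists (open circles; red where the adjusted p is under 0.05), with each list's median as a black bar and the median of all tested genes as a dashed line. The red points are Tbx21 and Ifng among the members, Havcr2, Ccl3 and Ccl4 among the effector genes, and Ciita and Iigp1 among the IFN-γ targets.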

How the data were processed

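Per the file headers, the authors deposited 1 table with an estimated count for each transcript in each library, with transcript length and GC content as a fraction; GC entered no test. Per the submitters' processing notes, tools and build were Bowtie2 2.1.0, eXpress 1.3.1 and GRCm38. Annotation release, settings and use of strand: not given in the sources used here. Libraries were stranded, per the labels' protocols.

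Estimated counts were summed per gene and rounded. The main test was edgeR 4.0.16 (quasi-likelihood, TMM, filterByExpr, no block, Benjamini-Hochberg, threshold 0.05) in R 4.3.3, with DESeq2 1.42.0 and limma-voom 3.58.1 as alternatives. Figures used Python 3.11.15. Scripts were tested on simulated data. No per-sample column was unused.

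The genotypes share replicate numbers. Deviations from group means correlated at 0.60, 0.45 and 0.64 between same-number libraries, over the preset 0.1, so numbers were taken as pairs, although no label states a shared litter, batch or day. The labels call replicates biological but name no animals, so p-values measure the spread between these libraries. Every pair of libraries within a genotype differed beyond counting error (chi-square over its degrees of freedom, 116 to 203), so all were counted as separate samples. Floors, 3 counts per library, cover counting error only. Promoter sequences are RefSeq's on GRCm38.p6, and all 8 genes matched.

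Genes and lists were chosen with earlier results of these data known. Named were all 8 genes and their transcripts above the floor, and list genes called in an unpaired or paired fit. List genes with the smallest unpaired p, the nearest profiles and defining markers were also named. Cxcr3, Stat4, Il12rb2, Il12a, Il12b, Il18, Cbfb and Gata3 were named after values were seen. So were Irf1, Igtp, Gbp7, Il22, Gzma, Cd68, Tcrg-C4 and the number 1 pattern. Some list genes are not reported here by name.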

Additional observations from a re-analysis of the deposited data

How the results depend on the processing

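No gene was called by edgeR, limma-voom or edgeR with another scaling, filter or transcript set on all 6 libraries; at an unadjusted p under 0.05 there were 276 genes in limma-voom without and 1642 with the replicate block. DESeq2 called 13 genes without and 381 with the replicate block, 2 of them members; with the block and without number 1, 2 or 3 of both genotypes it called 176, 264 and 149 genes and 0, 1 and 0 members. Leaving out single libraries gave 0 to 1 gene in edgeR. Among transcripts, paired DESeq2 called 411, 1 of them a member. Without KO 1, with WT 1 kept, the edgeR log2 changes of Tbx21 (-0.43), Ifng (-1.11), Il18rap (-0.71), Il18r1 (-0.67) and Eomes (-2.41) were below 0. The ranges over the single libraries left out were -0.43 to 1.94 for Tbx21, -1.11 to 2.93 for Ifng, -2.41 to 2.24 for Eomes, -0.28 to 0.42 for Runx1, -0.32 to 0.49 for Hlx, -0.67 to 1.00 for Il18r1 and -0.71 to 1.47 for Il18rap; Runx3 stayed at -0.18 to -0.10. For transcripts they were -0.41 to 1.96 (Tbx21-001), -1.09 to 2.95 (Ifng-201), -2.24 to 2.39 (Eomes-001), -0.57 to 0.49 (Runx1-202), -0.10 to 1.00 (Runx1-203), -0.20 to 0.53 (Runx3-005), -0.30 to 0.52 (Hlx-001), -0.70 to 1.06 (Il18r1-202), -0.26 to 0.77 (Il18r1-203), -0.67 to 1.52 (Il18rap-001) and -1.80 to 1.32 (Il18rap-004). Values that turned below 0 inside these ranges were those without KO 2 (Runx1-202 -0.07), without KO 3 (Runx1 -0.10), without WT 1 (Runx1 -0.11, Runx1-202 -0.30), without WT 2 (Eomes -0.16, Eomes-001 -0.08) and without WT 3 (Eomes -0.28, Il18r1 -0.16, Eomes-001 -0.27, Il18r1-202 -0.21, Il18rap-004 -0.12). Genes near 0 turned sign: Eomes was at -0.09 in limma-voom, -0.07 and -0.08 in edgeR and DESeq2 with the block, -0.32 and -0.08 in paired DESeq2 without number 1 and number 3, and -0.40 in edgeR without both number 1 libraries. Runx1 was at -0.08 in limma-voom, -0.07, -0.08 and -0.02 in edgeR, DESeq2 and limma-voom with the block, -0.45 and -0.06 in paired DESeq2 without number 2 and number 3, and -0.30 in edgeR without both number 2 libraries. Hlx was at -0.0038 in limma-voom, -0.43 in paired DESeq2 and -0.32 in edgeR, each of the last pair without number 2, and Runx1-202 at -0.24 in both paired fits. The cause was not tested. The edgeR fits without both libraries of a number were added after seeing the data. Members were called only in DESeq2 fits with the block. Depth limits Hlx, at 25 to 78 counts a library, and Eomes outside the number 1 libraries, at 39 to 96.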
